A study of Mus musculus with 4 samples.

Results

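The Prss genes of the mouse encode serine proteases, nearly all of them trypsin-like, and they were taken here as the entries of the deposited expression table whose name is Prss followed by a number. The table held 38 such entries among 26068 named ones. Of the 38, 20 had a mean of at least 0 on the table's log2 RPKM scale, where 0 is 1 RPKM (reads per kilobase of transcript, scaled to the mapped reads of the library), and 18 lay below it. Prss36, with a mean of 0.46, lay just inside this limit, and Prss23, with a mean of -0.44, lay just outside it.

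The RNA came from the whole testis of male mice of the B6D2F1 strain, 24 days old. Wild-type mice gave 2 libraries and mice homozygous for an Adad2 knockout gave 2, with no other treatment named for either group. ADAD2 is an RNA-binding protein of male germ cells that also carries an adenosine deaminase domain. The comparison asks how the testis transcriptome differs when Adad2 is disrupted, and the labels do not say whether the 2 libraries of a group came from separate animals, so p-values measure the spread between these libraries, which may be technical.

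A trypsin-like protease cuts proteins with a catalytic triad of histidine, aspartate and serine, and most members are made as inactive precursors that are activated by cleavage. Several members are made in male germ cells, where they reach the acrosome or the sperm surface. Others have lost residues of the triad and are thought to act without cutting, as Prss37 does in helping the maturation of the sperm membrane protein ADAM3. ADAM3 on the sperm surface is needed for passage into the oviduct and for binding to the egg coat, and mice without Prss55 are known to lack its mature form.

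The stretch of coding sequence around the catalytic serine shows how the members described below differ. It was searched as the in-frame codons for glycine, aspartate, any residue, glycine and glycine, and 30 bases are shown 5' to 3' from the coding strand of the GENCODE M21 transcripts, with the codon at the place of the catalytic serine in capitals. Prss55 and Prss52 are shown for the large losses described next, Prss39 and Prss21 as members whose levels did not pass the test, and Prss44 and Prss45 as neighbours in a chromosome 9 array.
Prss55: tgccagggtgacAGTgggggaccgcttgtc
Prss52: tgccagggcgacAGTggaggagctctcgtt
Prss39: tgccgaggagacTCTgggggccccctggtc
Prss21: tgctttggtgacTCGggaggacccttggcc
Prss44: tgccagggagatTCTgggggccccctggtc
Prss45: tgctatggagacCCCggggggccattggct

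The capitals read as a serine codon in each of these except Prss45, which has CCC, a proline codon. Over the 38 genes the pattern was found with a serine codon in 24, with another codon in 1 and not at all in 13. The 13 without it included Prss37, Prss54, Prss58, Prss46, Prss51 and Prss50, and also Prss16, a thymus serine protease of another family. Among the 4 genes that fell past the threshold below, 1 had the serine codon and 3 lacked the pattern, and among the 16 tested genes that did not pass, 9 had the serine codon, 1 had the other codon and 6 lacked the pattern. A missing match says only that these letters are not in the longest coding sequence annotated.

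In the Adad2 knockout, 4 of the 20 tested Prss genes fell and none rose at an adjusted p under 0.05 (limma, Benjamini-Hochberg over all 13414 genes tested). These 4 were Prss55, Prss58, Prss54 and Prss46. The share of Prss genes that fell was 20%, against 7.15% of all genes tested, and 1.22% of all genes tested rose. At an unadjusted p under 0.05, 5 of the 20 were lower and 2 were higher, beside 11.3% and 15.6% of all genes tested. The median change of the 20, knockout minus wild type, was 0.04 on the log2 scale, against 0.14 for all genes tested, so the lower members stood beside a larger number that moved little.

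**Figure D1:**
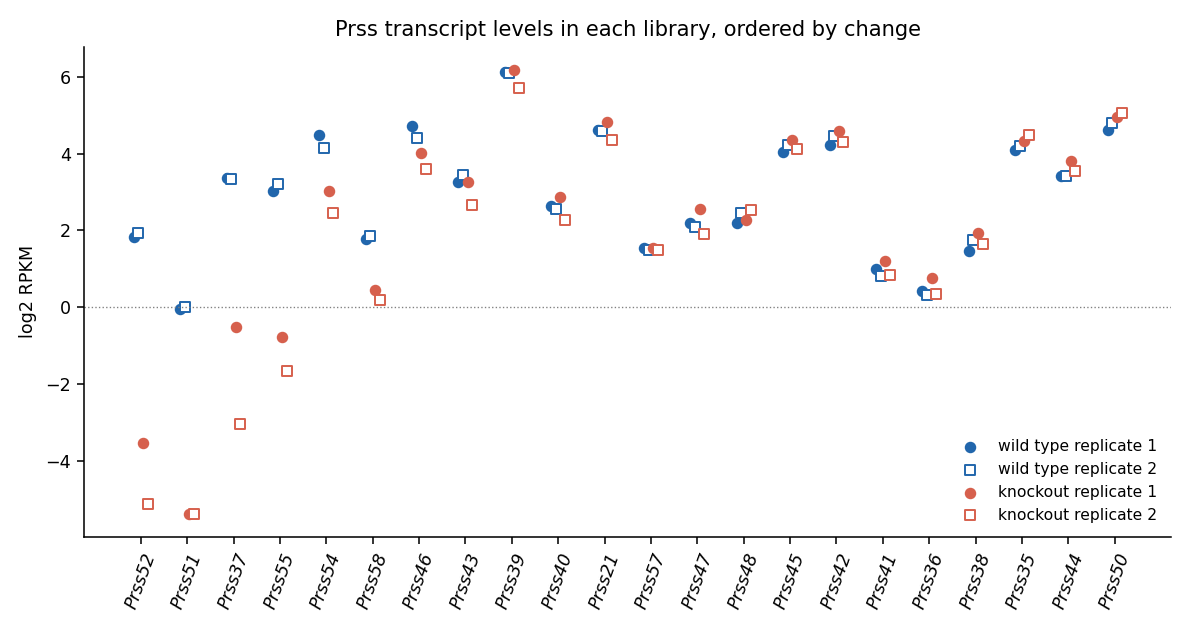
Level of each of the 20 tested Prss genes and of the 2 untested genes Prss51 and Prss52 in the 4 libraries, on the table's log2 RPKM axis, with wild-type and knockout libraries as separate points. Prss37, Prss55, Prss51 and Prss52 show knockout points far below the wild-type ones, and for most other genes the points of both groups lie close together.

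Of the tested members, Prss37 and Prss55 had the largest differences. Prss37 (ENSMUSG00000029909; mm9 chromosome 6, 40464823 to 40469507, minus strand) had levels of 3.37 and 3.33 log2 RPKM in the wild-type libraries and at -0.51 and -3.05 in the knockout ones. The groups did not overlap, and the knockout libraries lay far apart from each other, with about 26 reads in one and 4 in the other against 352 and 418 in wild type. The mean difference was -5.13 (SE 0.98, 95% interval -8.03 to -2.23), or 35.1-fold lower, the 5th largest decrease of all genes tested. Prss37 passed the limit on the mean through its wild-type level alone, since its knockout mean was -1.78. The rank leaves out genes with a mean below that limit, among them Prss52 (-6.22) and Prss51 (-5.36), so it depends on the limit. With the spread between its knockout libraries, Prss37 did not pass the threshold (limma adjusted p = 0.0848).

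The call on Prss37 differed between settings. On log2(RPKM + 1) the difference was -3.02 with a limma adjusted p of 0.000188. It also passed after quantile normalization (limma adjusted p = 0.0405), without the trend and robust options (limma adjusted p = 0.0113), and when either knockout library was left out. It did not pass with no limit on the mean (limma adjusted p = 0.0619), with library medians set equal (0.135), or without wild-type library 1 (0.143) or 2 (0.112). Without knockout library 1 the difference was -6.40 and without knockout library 2 it was -3.86, and these fits take the spread from the 2 close wild-type libraries.

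Prss55 (ENSMUSG00000034623; mm9 chromosome 14, 64694275 to 64708999, minus strand) is a membrane-anchored testis protease. It had levels of 3.02 and 3.22 log2 RPKM in wild type and at -0.78 and -1.67 in the knockout, with no overlap. About 344 and 481 reads in wild type compared with 27 and 13 in the knockout. The difference was -4.34 (SE 0.30, 95% interval -5.06 to -3.62), 20.2-fold lower, with a limma adjusted p of 0.000491. It was the 23rd largest decrease of all genes tested, a rank with the same limit as that of Prss37. Prss55 too passed the limit on the mean through wild type alone, with a knockout mean of -1.22.

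Prss55 lies in a group of 3 Prss genes that spans 38.3 kb on chromosome 14 (mm9), and the other 2 were also far lower in both knockout libraries. Prss51 (ENSMUSG00000052099; 64705071 to 64716507, plus strand) had levels of -0.06 and 0.00 log2 RPKM in wild type and at -5.39 and -5.38 in the knockout. Prss52 (ENSMUSG00000021966; 64723123 to 64732592, plus strand) stood at 1.84 and 1.94 in wild type and at -3.55 and -5.12 in the knockout. Their means over the 4 libraries lay below 0, so they were not tested in the main comparison.

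In reads, Prss52 had about 115 and 151 in wild type, 3 in knockout library 1 and none in library 2. After scaling to depth this is a ratio of 82.5 between wild type and knockout, with a 95% interval of 27.9 to 402 for counting error alone. Prss51 had about 36 and 46 reads in wild type and 1 read over the 2 knockout libraries, a ratio of 76.3 (interval 13.3 to 3050). With no limit on the mean, both passed the threshold among all 26068 named entries (limma adjusted p = 0.0136 for Prss52 and 0.00462 for Prss51). In that fit 5 of 38 Prss genes were lower, beside 4.14% of all entries: these 2 with Prss54, Prss55 and Prss58. In knockout library 2 both Prss51 and Prss52 stand at the value listed for a gene without reads. The knockout spread behind their p-values rests in part on that set value, not on measured levels alone.

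Prss55 and Prss51 overlap by 3929 bases on opposite strands. Whether strand was used in counting is not given in the sources used here, so reads of the 2 genes in that stretch cannot be told apart. The neighbours of the group did not move alike. 4930471C04Rik, which starts between Prss51 and Prss52, went from -0.80 and -1.83 log2 RPKM in wild type to -4.99 and -4.82 in the knockout (limma adjusted p = 0.0171 with no limit on the mean). Its knockout values stand at about the value listed for a gene without reads, and its wild-type level was low too. The size of its fall and its p-value are therefore uncertain. 4930578I06Rik, on one side, went from 5.27 and 5.10 to 3.84 and 3.58, a fall of 1.48 on the log2 scale (limma adjusted p = 0.000344). Msra, a methionine sulfoxide reductase gene on the other side, differed by 0.26 and did not pass (limma adjusted p = 0.295). These genes were named for their position, after their values were seen.

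**Figure D2:**
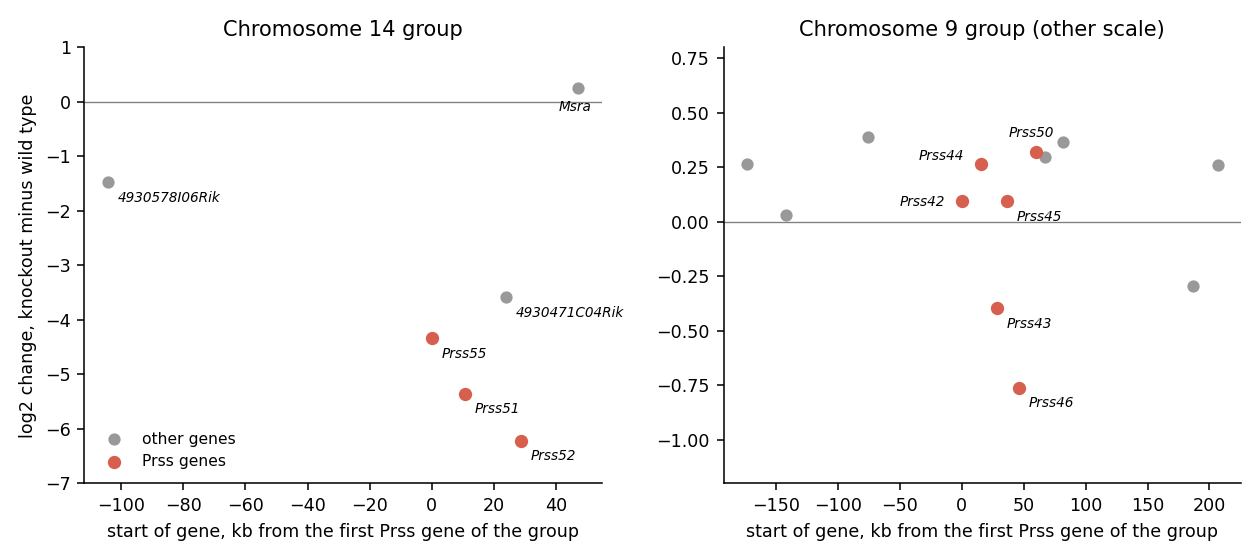
Change in log2 RPKM (knockout minus wild type) of genes in the chromosome 14 group (left) and the chromosome 9 group (right), against the distance of each gene's start from the group's first Prss gene in kb; the vertical scales differ. Prss55, Prss51 and Prss52 lie between -4.34 and -6.22, while the 6 Prss genes of chromosome 9 lie between -0.76 and 0.32.

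The other 3 genes that fell changed by less. Prss54 (ENSMUSG00000048400; mm9 chromosome 8, 98083033 to 98099355, minus strand), a testis member without the full triad, had levels of 4.48 and 4.15 log2 RPKM in wild type and at 3.01 and 2.45 in the knockout. The groups did not overlap, and the difference was -1.58 (SE 0.21, 95% interval -2.11 to -1.05), 3.0-fold lower (limma adjusted p = 0.00877). Its neighbour Ccdc113 on the opposite strand, named for its position after its values were seen, stood at 6.26 and 6.53 in wild type and at 6.42 and 6.24 in the knockout, so the groups overlapped.

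Prss58 (ENSMUSG00000051936; mm9 chromosome 6, 40845261 to 40850386, minus strand) had levels of 1.79 and 1.86 log2 RPKM in wild type and at 0.44 and 0.18 in the knockout. Both groups were tight and did not overlap. The difference was -1.51 (SE 0.17, 95% interval -1.90 to -1.13), 2.85-fold lower (limma adjusted p = 0.00111).

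Prss46 (ENSMUSG00000049719; mm9 chromosome 9, 110747010 to 110759026, plus strand) had levels of 4.72 and 4.40 log2 RPKM in wild type and at 4.0 and 3.59 in the knockout. The groups did not overlap, but the difference of -0.76 (SE 0.17, 95% interval -1.17 to -0.35), 1.70-fold lower, was close to the threshold (limma adjusted p = 0.0452). It was lost with no limit on the mean (limma adjusted p = 0.145), after quantile normalization (limma adjusted p = 0.0519) and without the trend and robust options (limma adjusted p = 0.0742).

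The calls on these 4 genes rested on both wild-type libraries. Without wild-type library 1, none of the 4 passed, and no gene at all was called lower by limma (1277 were lower at an unadjusted p under 0.05). Without wild-type library 2, Prss55 alone passed, when 2.15% of all genes tested were called lower. The sizes of the differences changed little: that of Prss55 was -4.44 without wild-type library 1 and -4.24 without library 2, and that of Prss54 was -1.42 and -1.75. That of Prss58 was -1.55 and -1.48, and that of Prss46 was -0.60 and -0.92.

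**Figure D3:**
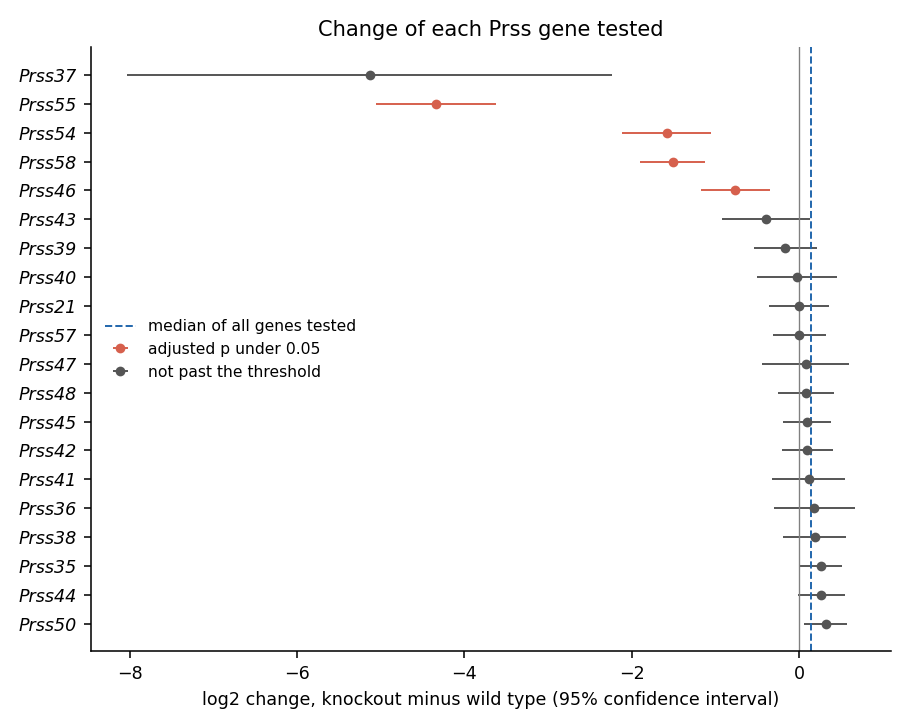
Change in log2 RPKM (knockout minus wild type) of the 20 tested Prss genes, with the 95% intervals of the limma fit as bars and the median of all genes tested as a dashed line. The intervals of Prss37, Prss55, Prss54, Prss58 and Prss46 lie below 0, that of Prss37 is the widest, and those of Prss35 and Prss50 lie just above 0.

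The stretch upstream of the start is shown for the tested genes with the largest decreases that had a promoter entry, with Prss46 as the smallest of the 4 that fell. Each is the 250 bases before the RefSeq start of GRCm38.p6, 5' to 3' on the gene's own strand, and capitals mark matches, on either strand, to AACNGNC, the core bound by MYB factors, or to GTTGCC, a half-site of RFX factors. Both kinds of factor are known to act in male germ cells.
Prss37 (chr6:40519509-40519758, minus strand): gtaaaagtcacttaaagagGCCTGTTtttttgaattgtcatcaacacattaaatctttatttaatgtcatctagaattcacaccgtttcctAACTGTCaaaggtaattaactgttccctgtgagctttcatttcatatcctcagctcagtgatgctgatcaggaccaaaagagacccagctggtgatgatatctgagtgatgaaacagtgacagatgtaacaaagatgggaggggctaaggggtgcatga
Prss54 (chr8:95575608-95575857, minus strand): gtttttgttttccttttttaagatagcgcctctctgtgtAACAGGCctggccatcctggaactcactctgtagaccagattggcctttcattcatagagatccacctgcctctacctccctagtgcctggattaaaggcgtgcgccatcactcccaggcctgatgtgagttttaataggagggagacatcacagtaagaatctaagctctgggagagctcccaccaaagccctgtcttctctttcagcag
Prss58 (chr6:40900388-40900637, minus strand): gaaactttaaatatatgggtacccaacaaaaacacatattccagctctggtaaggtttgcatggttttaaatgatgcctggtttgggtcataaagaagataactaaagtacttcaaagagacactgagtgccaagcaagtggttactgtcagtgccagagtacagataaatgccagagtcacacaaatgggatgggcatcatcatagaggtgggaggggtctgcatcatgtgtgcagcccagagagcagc
Prss46 (chr9:110844256-110844505, plus strand): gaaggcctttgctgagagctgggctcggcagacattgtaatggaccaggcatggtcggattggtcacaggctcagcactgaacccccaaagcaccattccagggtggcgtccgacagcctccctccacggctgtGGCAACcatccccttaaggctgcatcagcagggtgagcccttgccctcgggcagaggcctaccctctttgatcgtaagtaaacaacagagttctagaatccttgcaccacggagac

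The MYB core was found in 11 of the 28 Prss promoters with an entry, among them Prss37, Prss54, Prss39, Prss40 and Prss42, beside 27.7% of all 32851 promoters. The RFX half-site was found in 3 of 28, in Prss46, Prss47 and Prss21, beside 10.43% of all. The cAMP response element TGACGTCA was found in 0 of 28 and in 1.55% of all promoters. Its half-site TGACG, which each full element contains, was found in 4 of 28 (Prss35, Prss38, Prss28 and Prss29) and in 17.77% of all. Matches stood in genes that fell and in genes that did not pass the test, and a match is only a run of letters in this window.

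The 6 Prss genes of chromosome 9 lie on 1 strand within 66.5 kb (mm9, 110700670 to 110767132), and Prss46 was the only one of them that fell. Several of this array are testis proteases of pachytene spermatocytes and spermatids. Prss43 had levels of 3.27 and 3.44 log2 RPKM in wild type and at 3.27 and 2.65 in the knockout, a difference of -0.40 that did not pass (limma adjusted p = 0.266). It passed as lower without knockout library 1, when the difference was -0.70, so its value there rests on 1 knockout library. Prss42 stood at 4.23 and 4.45 against 4.58 and 4.30, so the groups overlapped (difference 0.10, limma adjusted p = 0.628). Prss45, the member with the proline codon, overlapped too, at 4.05 and 4.23 against 4.35 and 4.12 (difference 0.09, limma adjusted p = 0.610).

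Prss44 and Prss50, the other 2 of the array, stood above wild type in both knockout libraries without passing the test. Prss44 had levels of 3.40 and 3.41 log2 RPKM in wild type and at 3.81 and 3.53 in the knockout (difference 0.27, limma adjusted p = 0.196). Prss50, a germ cell member, is known for threonine in place of the catalytic serine, though the search above did not find the pattern in it. It stood at 4.60 and 4.79 in wild type and at 4.96 and 5.07 in the knockout. Its difference was 0.32 (SE 0.11, 95% interval 0.06 to 0.58, limma adjusted p = 0.128), and it had the second highest mean of the tested Prss genes that were not called.

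Prss39 and Prss40, a pair within 62.5 kb on chromosome 1, encode proteases of the sperm acrosome. Prss39 had the highest level of all 38 members, with a wild-type geometric mean of 69.1 RPKM. It had levels of 6.11 and 6.11 log2 RPKM in wild type and at 6.18 and 5.71 in the knockout, so the groups overlapped (difference -0.17, limma adjusted p = 0.499). Prss40 stood at 2.62 and 2.55 against 2.87 and 2.27, and also overlapped (difference -0.02, limma adjusted p = 0.943). For both genes knockout library 1 lay above wild type and knockout library 2 below it.

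Prss21, or testisin, is a membrane-anchored protease of germ cells in the chromosome 17 group of 7 members. It had levels of 4.61 and 4.57 log2 RPKM in wild type and at 4.82 and 4.36 in the knockout, with overlap (difference -0.00, limma adjusted p = 0.996). Prss41, in the same group, stood at 0.99 and 0.81 against 1.20 and 0.83 (difference 0.12, limma adjusted p = 0.683), and it overlaps Prss32 on the other strand by 318 bases. Neither passed, in contrast to the chromosome 14 group, where Prss55 and both untested members were far lower.

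Prss35, a secreted member without a catalytic serine that is known from the gonads, was higher in both knockout libraries, at 4.33 and 4.49 log2 RPKM against 4.09 and 4.19 in wild type. The difference was 0.26 (95% interval 0.01 to 0.51), and it did not pass (limma adjusted p = 0.170). Among all tested Prss genes, both knockout libraries lay above both wild-type ones in 3 (Prss35, Prss44 and Prss50), beside 46.4% of all genes tested. Both lay below in 6, which were the 4 that fell, Prss37 and, by a narrow margin, Prss43, beside 16.8% of all genes tested. The groups overlapped in the remaining 11.

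The rest of the tested members were low to moderate in level and did not pass the test. Prss57, a protease of neutrophil granules, had levels of 1.53 and 1.50 log2 RPKM in wild type and at 1.54 and 1.49 in the knockout (difference 0.00, limma adjusted p = 0.987). Prss48 stood at 2.18 and 2.45 against 2.28 and 2.52 (difference 0.08, limma adjusted p = 0.707). Prss47 stood at 2.20 and 2.10 against 2.55 and 1.90 (difference 0.08, limma adjusted p = 0.811). In each of these 3 the groups overlapped. Prss38 stood at 1.47 and 1.74 against 1.94 and 1.64 (difference 0.19, limma adjusted p = 0.453). Prss36, or polyserase-2, which carries several protease domains in 1 protein, stood at 0.42 and 0.32 against 0.75 and 0.34 (difference 0.18, limma adjusted p = 0.568). These 2 overlapped as well.

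Apart from Prss37, the 15 tested genes that were not called had differences from -0.40 to 0.32, and their 95% intervals reached from -0.92 to 0.66. The 2 knockout libraries differed in a common direction: library 2 lay below library 1 in 17 of the 20 genes, beside 55.8% of all genes tested. The median of the 20 relative to the wild-type mean was 0.20 in knockout library 1 and -0.15 in library 2, while over all genes tested it was 0.14 and 0.13.

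**Figure D4:**
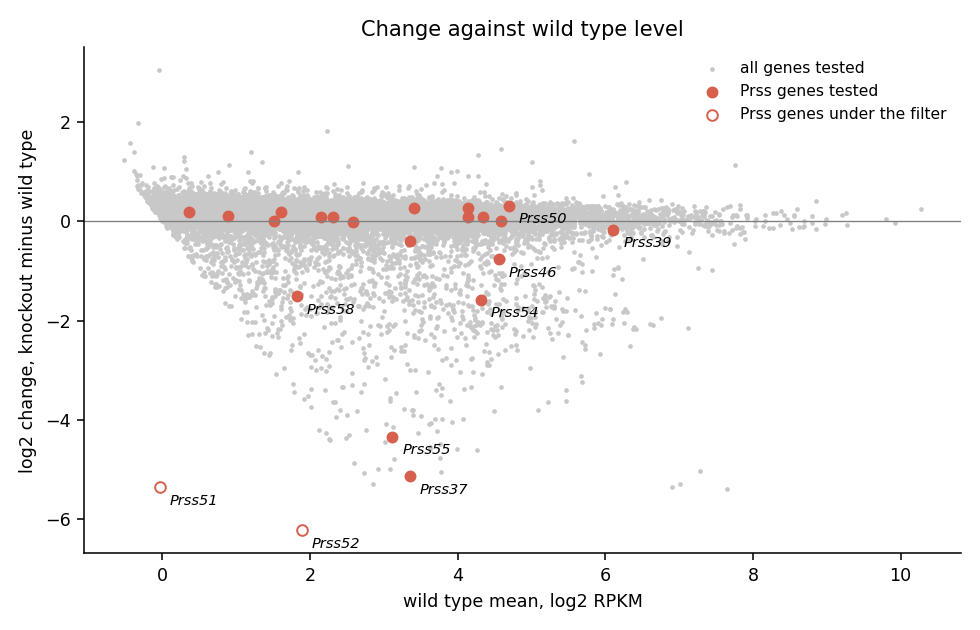
Change in log2 RPKM (knockout minus wild type) against the mean log2 RPKM of the wild-type libraries for all 13414 genes tested, with the 20 tested Prss genes as filled points and Prss51 and Prss52 as open ones. Prss37 and Prss55 lie at the lower edge of the cloud, Prss54, Prss58 and Prss46 lie below its centre, and the other 15 lie near it.

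Beside Prss51 and Prss52, 16 entries were low and were not tested, and 6 of these had no read in any library. The 6 were the trypsins Prss1 and Prss3 of the pancreas, Prss27, the mast cell protease Prss34, and Prss28 and Prss29, proteases of the uterus at implantation. Prss2, another pancreatic trypsin, had about 2 reads in each wild-type library and none in the knockout ones, which is too few to compare. The highest of the 16 was Prss23, a secreted protease, at -0.25 and 0.15 log2 RPKM in wild type and -0.95 and -0.71 in the knockout (difference -0.78, limma adjusted p = 0.221 with no limit on the mean). Prss12, or neurotrypsin, went the other way, from -1.13 and -1.68 to -0.93 and -0.56. It did not pass either (limma adjusted p = 0.379 with no limit on the mean). Prss8 (prostasin), Prss16, Prss22, Prss30, Prss32, Prss33 and Prss53 were the rest.

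The losses in the Prss family were set beside those of related genes, whose counts are read against the 7.15% of all genes tested that fell and the 1.22% that rose, and, at an unadjusted p under 0.05, the 11.3% lower and 15.6% higher. A list of serine proteases with other names, most of them trypsin-like, also held the acrosin-binding protein gene Acrbp, which is no protease. Of its 15 tested members 1 fell and none rose in the limma fit, and at an unadjusted p under 0.05 it was 1 lower and 4 higher. The 1 that fell is close to the share of all genes, and the median was 0.25. The one that fell was Gzmn, a granzyme, from 2.99 and 2.47 log2 RPKM to 0.18 and -0.01, which was 6.26-fold lower (limma adjusted p = 0.00022). Lonp1, the mitochondrial Lon protease, differed by 0.38 and missed the threshold (limma adjusted p = 0.0542). Of 16 tested serine protease inhibitors none fell and none rose, with 0 at an unadjusted p under 0.05, and their median was 0.16.

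Of 23 tested genes of ADAM3 maturation and sperm migration, the process in which Prss37 takes part, 9 fell and 1 rose, with a median of -0.16. Adam6b, a sperm membrane protein gene, went from 2.24 and 2.27 log2 RPKM to -0.71 and -0.63, 7.59-fold lower (limma adjusted p = 6.29e-05). Its near copy Adam6a went from 3.02 and 2.67 to 0.40 and -0.32 (limma adjusted p = 0.00158), and reads of 2 such similar genes can be divided uncertainly. Ace, whose testis form is needed for sperm to reach the oviduct, fell from 3.86 and 3.85 to 2.78 and 2.71 (limma adjusted p = 0.000449). Tex101, a germ cell surface protein on which ADAM3 depends, rose from 7.66 and 7.85 to 8.86 and 8.92 (limma adjusted p = 0.000977). Adam3 itself, named after its values were seen, stood at 7.10 and 7.15 against 7.22 and 6.83, so the groups overlapped (limma adjusted p = 0.628).

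Of 27 tested acrosome genes 13 fell and none rose (16 lower and 0 higher at an unadjusted p under 0.05, limma), with a median of -1.50. The members did not move alike. Acr, a serine protease gene, differed by -0.22 and did not pass (limma adjusted p = 0.221). Dkkl1, the highest of the list, differed by -0.12 and did not pass (limma adjusted p = 0.512). Both were named after their values were seen. Hyal5, a sperm hyaluronidase, went from 3.97 and 3.85 log2 RPKM to 1.72 and 1.01 (limma adjusted p = 0.00243), and Spaca4, a sperm protein that binds the egg coat, from 5.35 and 5.14 to 3.98 and 3.51 (limma adjusted p = 0.00252). Most marker genes of late germ cells were also lower in the knockout. Of 12 tested round spermatid markers 11 fell, and their summed level was 292 to 351 RPKM in wild type and 60.3 to 91.7 in the knockout. Tssk6, a kinase of spermatids, went from 3.47 and 3.40 log2 RPKM to 0.00 and -0.01 (limma adjusted p = 4.18e-05). Of 16 elongating spermatid markers 13 fell, with sums of 1950 to 1960 and of 832 to 961 RPKM. Tuba3a, the highest of this list, reached 9.38 and 9.28 log2 RPKM in the knockout libraries and did not pass (difference 0.13, limma adjusted p = 0.513). It makes up most of both knockout sums. The sums therefore understate the fall of most members, and the median change of the list was -2.16. Of 14 pachytene spermatocyte markers 1 fell, and the sums overlapped, at 2840 to 3300 and 3030 to 3190 RPKM. Lyzl4, Spaca1, Acrv1, Izumo1 and Spaca7 stand in both the acrosome and the round spermatid lists. Acr and Acrbp stand in both the serine protease and the acrosome lists, and Adam2 and Clgn in both the ADAM3 and the pachytene lists. Rnase10 stands in both the ADAM3 list and that of the epididymis. The counts of these lists are therefore not independent.

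Of 14 Sertoli cell markers none fell or rose in the limma fit (0 lower and 8 higher at an unadjusted p under 0.05), with sums of 987 to 1050 RPKM in wild type and 1230 to 1250 in the knockout. Of 10 Leydig cell markers none fell or rose (0 lower and 1 higher at an unadjusted p under 0.05), with sums of 326 to 476 and 382 to 540 RPKM. Markers of the epididymis summed to 2.63 to 3.47 RPKM over the 4 libraries, and 1 of the 12 in the table passed the limit on the mean. Of 6 tested macrophage and mast cell markers 1 fell, Aif1, from 4.92 and 4.67 log2 RPKM to 2.66 and 1.95 (limma adjusted p = 0.00509), and the other 5 lay above 0. The list had sums of 43.9 to 48.0 RPKM in wild type and 25.3 to 26.3 in the knockout, and without Aif1 of 17.7 to 18.5 and 19 to 22.4. Of 6 tested red blood cell markers none fell or rose, with 0 at an unadjusted p under 0.05, and they summed to 65.9 to 121 and 53.8 to 64.9 RPKM. The part of these markers in the Prss differences was not tested, and in bulk RNA of whole testes fewer cells of a type and less RNA per cell cannot be told apart.

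**Figure D5:**
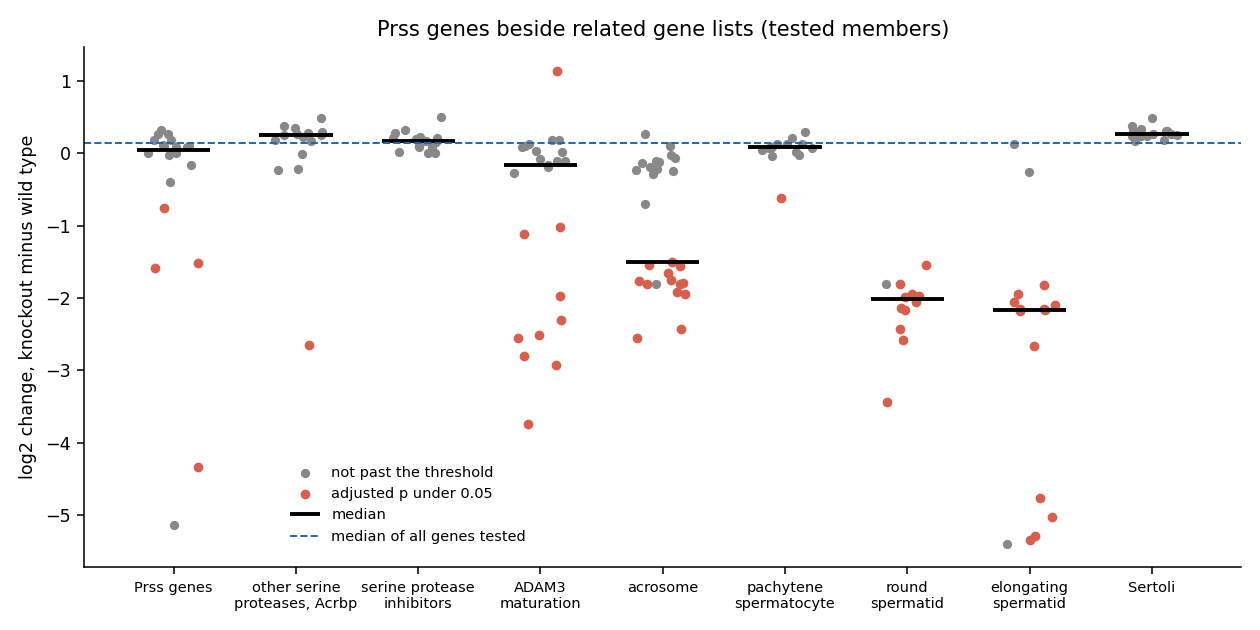
Change in log2 RPKM (knockout minus wild type) of the tested members of the Prss family, of related gene lists and of cell type markers, with each list's median as a bar and the median of all genes tested as a dashed line. The median of the Prss genes is 0.04, those of the acrosome, round spermatid and elongating spermatid lists are -1.50, -2.02 and -2.16, and that of the Sertoli list is 0.26.

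The targeted gene checks the labels. Adad2 had levels of 4.66 and 4.47 log2 RPKM in the wild-type libraries and at 3.73 and 3.30 in the knockout ones, with no overlap (difference -1.05, limma adjusted p = 0.00604). Which stretch of Adad2 was changed is not given in the sources used here, so a remaining level cannot be read as remaining protein. The depth, read back from the value that 1 read takes, was about 29400000 to 36900000 reads a library. In a gene of 1 kb, 1 read was worth 0.0271 to 0.034 RPKM, so the low knockout values of Prss37, Prss51, Prss52 and Prss55 rest on 0 to 27 reads a library.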

How the data were processed

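Total RNA of whole testes was made into TruSeq libraries, per the labels' protocols, and bcl2fastq 2.17.1.14, Bowtie2 and mm9 are named in the submitters' processing notes. The authors deposited 1 table of log2 RPKM per gene. No counting tool, annotation or use of strand is given in these sources. Of 26127 entries, 59 that name no gene were left out, and no sample column was unmapped.

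Entries with a mean of at least 0 were tested on the deposited log2 RPKM values with limma 3.58.1 (R 4.3.3, statmod 1.5.0, trend and robust options), 2 libraries against 2, as a two-sided test; p-values were adjusted by Benjamini-Hochberg over the 13414 genes tested, with a threshold of 0.05. The script was tested on simulated data. An exact permutation test over 2 against 2 libraries could not give a p below 0.333 and was not used. Each SE is that of the limma fit.

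Reads were estimated from the value of 1 read. Between 91.9% and 93.1% of values of 2 to 10 reads in 1194 single-exon genes were whole within 2%. A gene without reads is listed at 0.9 read. Intervals on read ratios cover counting error only. Exon lengths and coding sequences came from GENCODE M21 and promoters from RefSeq GRCm38.p6. Table coordinates are mm9.

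All tested Prss genes are described. Up to 4 genes of smallest p were named from lists of related genes, and other genes only where said. Members and lists were chosen with earlier results of these data known. Alternatives covered the limit on the mean, log2(RPKM + 1), 2 scalings, plain limma, a replicate block and leaving out each library.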

Additional observations from a re-analysis of the deposited data

How the results depend on the processing

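Among 213 values of single genes under 11 alternatives, 179 kept both their direction and their side of the threshold, 10 lost and 7 gained a call, and none that had been called changed sign. In the other 17, from 10 genes, the sign differed with neither value called. With no limit on the mean, 97 genes rose instead of 163 and Prss46 lost its call. With a limit at a mean of 2, 637 of 8516 genes fell instead of 959 of 13414. Of the 13 Prss genes left to test 2 fell, since Prss55, Prss58 and others were no longer tested. Equal medians gave the same 4 of 20 Prss genes lower, beside 1025 of all 13414 genes. Quantile normalization also gave 4, with Prss37 in place of Prss46, beside 1067 of all 13414 genes. Log2(RPKM + 1) gave 5, with Prss37, beside 1040 of all 13414 genes.

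Leaving out 1 library in turn gave 0 to 1308 genes lower and 0 to 494 higher, both 0 without wild-type replicate 1. It gave 288 lower and 22 higher without wild-type replicate 2, and 405 and 494 higher without knockout replicate 1 and 2. Prss genes lower ranged from 0 to 6, with 0 and 1 when wild-type replicate 1 or 2 was left out. The median Prss change ranged from -0.15 without knockout replicate 1 to 0.20 without knockout replicate 2. The Adad2 difference ranged from -1.26 to -0.84 and lost its call without wild-type replicate 1 (limma adjusted p = 0.143) or 2 (0.0838). In these fits a lone library takes its spread from the other group. The cause of these shifts was not tested.

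The labels number the libraries 1 and 2 in each group without saying that a number marks a pair, and the same-numbered libraries' deviations correlated at 0.33 across genes. With the replicate number as a block, 1477 genes fell and 1837 rose, 4 Prss genes fell and 1, Prss50, rose (limma adjusted p = 0.0378). Prss37 did not pass in that fit (limma adjusted p = 0.186). Depth limits the knockout levels of Prss51 and Prss52, which rest on 0 to 3 reads a library.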
